A study of Mus musculus with 9 samples.

Results

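The 9 genes described here act on messenger RNA after it is made: Pabpc1, Pabpc4, Pcbp2 and Zfp36l2 bind mRNA and set how long it lasts, and Tpt1, Eef1a1, Eef2, Eif4a1 and Eif4ebp1 take part in its translation or are controlled through it. They were chosen by gene symbol from 20368 genes, and all 9 were among the 9543 genes with at least 1 FPKM (fragments per kilobase of transcript, scaled for sequencing depth) in at least 3 libraries. RNA was sequenced from CD71+Ter119+ splenocytes of C57BL/6 mice, aged 4 weeks, in 3 libraries each from Dhh knockout (Dhh-/-), Dhh heterozygous (Dhh+/-) and wildtype animals. Dhh encodes the secreted ligand Desert hedgehog, CD71 takes up transferrin-bound iron and Ter119 marks red cell precursors, and the study asked how Dhh bears on red cell formation in the spleen. The labels name neither the construct of the Dhh null allele nor the sex of the mice, nor whether a library is 1 mouse or a pool, so a p-value here reflects only how far libraries of a genotype differ.

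An erythroblast makes large amounts of globin from long-lived mRNA while its nucleus condenses, so the proteins that protect and translate mRNA are a main part of its late program. Poly(A)-binding proteins coat the mRNA tail and join it to the cap complex, poly(C)-binding proteins stabilize alpha-globin mRNA in human cells, and zinc-finger proteins of the Zfp36 family bind AU-rich elements and bring in the enzymes that shorten the tail. Initiation needs the helicase eIF4A at the cap and is held back by 4E-BP1, and the elongation factors eEF1A and eEF2 then carry the ribosome along.

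The libraries held 7.05 to 14.23 M recovered reads (1 M is 1000000 reads). Knockout replicate 2, heterozygous replicate 2 and wildtype replicates 1 and 2 were the 4 shallower ones (7.05 to 9.66 M), and the other 5 had 13.05 to 14.23 M. All 12 erythroid markers were at 1 FPKM or more in every library, and their summed level ran from 17710 to 24810 FPKM in knockout, 15330 to 27930 in heterozygous and 19230 to 27430 in wildtype libraries. Genes of other cell types were present too. The summed B cell markers (12 of 12 in the table, 5 at 1 FPKM or more throughout) ran from 356.7 to 896.2 FPKM in knockout, 643.9 to 861.6 in heterozygous and 91.0 to 1435 in wildtype libraries. For macrophage markers (11 of 11) the sums were 456.6 to 1540, 768.6 to 946.5 and 144.5 to 1473 FPKM in the same 3 genotypes. T and NK cell markers (10 of 11), neutrophil markers (10 of 10) and platelet markers (7 of 8, with 1 at 0 throughout) summed to 9.42 to 100.9, 259 to 1631 and 33.0 to 54.3 FPKM over all libraries. Wildtype replicate 3 was the lowest library and wildtype replicate 1 the highest in B cell, T and NK cell marker sums. Knockout replicate 2 had 0.599 FPKM of Eif2s3y, a Y-linked initiation factor gene chosen after its values were seen, against 40.0 to 67.1 FPKM in the other 8 libraries. Dhh was listed at 0 in 8 libraries, wildtype included, and at 0.0267 FPKM in heterozygous replicate 1, so it cannot serve as a check on the labels.

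Pabpc1 (ENSMUSG00000022283, mm10 chromosome 15, 36595661 to 36609668, minus strand) encodes the main cytoplasmic poly(A)-binding protein and, at a mean of 2106 FPKM, was the 11th most abundant gene of the table. Its level was 2075, 2101 and 2113 FPKM in knockout replicates 1 to 3. It was 1659, 2607 and 1759 FPKM in heterozygous libraries and 2611, 2457 and 1569 FPKM in wildtype libraries. The 3 knockout libraries lay close together and inside the range of both other genotypes, which overlapped each other almost wholly. The log2 difference was -0.04 ± 0.23 (SE, 95% interval -0.56 to 0.48) for knockout minus wildtype, -0.13 (-0.66 to 0.39) for heterozygous minus wildtype and 0.09 (-0.43 to 0.61) for knockout minus heterozygous, on the log2(FPKM + 1) scale used for every difference below. By depth, the 4 shallower libraries were at 2101 to 2611 FPKM and the 5 deeper ones at 1569 to 2113. Knockout minus wildtype was 0.04 in a fit with depth as a term and -0.12 with the mean level of leukocyte markers as a term. In sorted bulk cells, fewer cells of a type and less RNA per cell cannot be told apart.

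Pabpc4 (ENSMUSG00000011257, chromosome 4, 123262351 to 123298925, plus strand) encodes another cytoplasmic poly(A)-binding protein, which mouse erythroleukemia cells need to mature. It was at 295, 228 and 287 FPKM in knockout, 255, 272 and 267 FPKM in heterozygous and 248, 271 and 309.8 FPKM in wildtype libraries. The lowest value was knockout replicate 2 and the highest wildtype replicate 3, so the 3 genotypes overlapped. The differences were -0.04 (-0.35 to 0.27), -0.06 (-0.37 to 0.25) and 0.02 (-0.29 to 0.33) for knockout minus wildtype, heterozygous minus wildtype and knockout minus heterozygous. The knockout minus wildtype value had the other sign, 0.08, without knockout replicate 2.

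Both poly(A)-binding genes stood in a ratio that varied between libraries of a genotype more than between genotype means (7.88 in knockout, 7.56 in heterozygous, 8.20 in wildtype). Pabpc1 was 7.04, 9.23 and 7.36 times as high as Pabpc4 in knockout libraries, 6.51, 9.57 and 6.59 times in heterozygous libraries, and 10.5, 9.05 and 5.06 times in wildtype libraries. The 4 shallower libraries held the 4 highest ratios (9.05 to 10.5), and the 5 deeper ones held 5.06 to 7.36, without overlap. The same split separated other measures without overlap: erythroid markers summed to 24810 to 27930 FPKM in the shallower and 15330 to 19270 in the deeper libraries, T and NK cell markers to 90.35 to 100.9 and 9.42 to 48.7 FPKM, and the mean log2 level of leukocyte markers was 4.60 to 5.08 and 2.35 to 4.30. Platelet markers split without overlap the other way, at 33.0 to 36.8 FPKM in the shallower and 38.3 to 54.3 FPKM in the deeper libraries. The B cell, macrophage and neutrophil marker sums overlapped between the depth sets. The part of these markers in the ratio was not tested. RefSeq start-site windows (GRCm38.p6) matched 6 of the 9 genes by symbol, all but Pabpc1, Zfp36l2 and Eif4ebp1. For Pabpc4, the window of 30 bases richest in A is shown. It ends shortly after the annotated start (chr4:123282891-123282920, plus strand), which lies inside the gene span given above. Bases before that start are not part of an mRNA made from it, and binding of the protein was not tested. Capitals mark the 25 A of the window. Of 32851 annotated start-site regions (250 bases before to 50 after the start), 0.444% had a richest window of 30 bases with at least as many A. The A counts of the other matched genes are not given here.
Pabpc4: tAAAAAAAAAAAAAAgAAAAgAAAAgAAgA

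Pcbp2 (ENSMUSG00000056851, chromosome 15, 102470539 to 102500061, plus strand, 3.57 Mb from Dhh) encodes a poly(C)-binding protein. It was among the steadiest of the 9 genes. It was at 138, 134 and 141 FPKM in knockout, 142, 138 and 134 FPKM in heterozygous and 133, 136 and 164 FPKM in wildtype libraries. Wildtype replicate 3 stood above the other 8 libraries, which spanned 133 to 142 FPKM. The differences were -0.06 (-0.31 to 0.19), -0.06 (-0.31 to 0.20) and -0.01 (-0.26 to 0.24), in the order of comparisons given for Pabpc4. Without wildtype replicate 3 they were 0.03 for knockout minus wildtype and 0.04 for heterozygous minus wildtype. Map3k12 overlaps it on the opposite strand and had a mean of 0.26 FPKM.

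Zfp36l2 (ENSMUSG00000045817, chromosome 17, 84183931 to 84187947, minus strand) encodes an AU-rich element binding protein that mouse early erythroid progenitors need to renew themselves. It was the least abundant and the most variable of the 9 genes. Its level was 14.4, 20.6 and 16.4 FPKM in knockout, 21.4, 16.2 and 20.005 FPKM in heterozygous and 36.5, 16.3 and 12.4 FPKM in wildtype libraries. The wildtype libraries alone gave both the highest value, in replicate 1, and the lowest, in replicate 3, a 2.94-fold range. These are also the libraries with the highest and the lowest mean log2 level of leukocyte markers, 5.08 and 2.35. The mean was 3.77 to 5.05 in knockout and 4.02 to 4.60 in heterozygous libraries. Zfp36l2 and this mean ranked libraries alike within knockout and within wildtype, and in reverse within heterozygous. Knockout replicate 2, with a mean of 5.05, had 20.6 FPKM, against 36.5 FPKM in wildtype replicate 1. How far the gene follows these markers was not tested. With that mean as a term in the fit, knockout minus wildtype was -0.31. Without the term it was -0.20 (-0.96 to 0.56) for knockout minus wildtype, -0.51 without wildtype replicate 3 and 0.23 without wildtype replicate 1. For heterozygous minus wildtype it was -0.04 (-0.79 to 0.72), and for knockout minus heterozygous -0.16 (-0.92 to 0.59). The knockout interval runs from 0.515 to 1.47 times the wildtype level, the widest of the 9 genes.

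**Figure D1:**
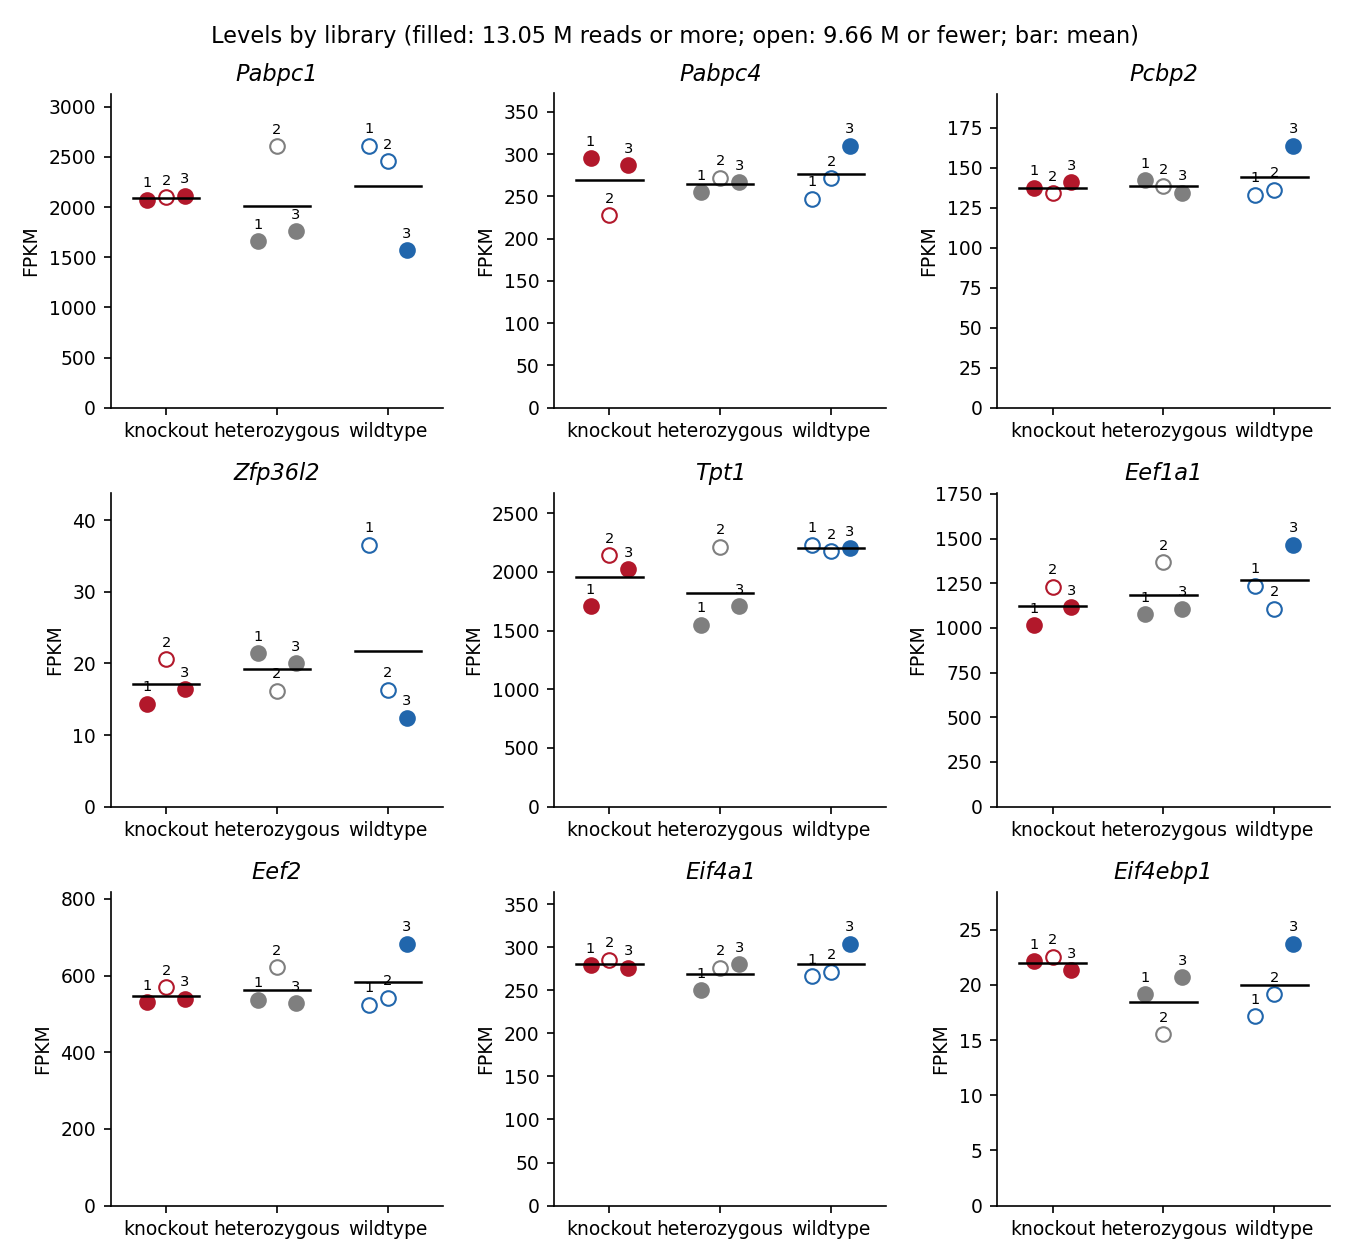
FPKM of each of the 9 genes in every library (y axis from 0), with knockout, heterozygous and wildtype libraries from left to right. Digits are replicate numbers, filled points are the 5 deeper libraries, open points the 4 shallower ones and bars the mean of 3. In Pabpc1 the open points sit at 2101 to 2611 FPKM, and wildtype replicate 3 stands highest for 6 genes.

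Tpt1 (ENSMUSG00000060126, chromosome 14, 75845093 to 75848525, plus strand) encodes the translationally controlled tumor protein, whose mRNA is stored and released with the growth state of the cell. At a mean of 1995 FPKM it ranked just after Pabpc1, in 12th place. It was at 1708, 2142 and 2023 FPKM in knockout, 1549.8, 2215 and 1706 FPKM in heterozygous and 2231, 2177 and 2201 FPKM in wildtype libraries. All 3 knockout libraries lay below all 3 wildtype libraries, while heterozygous replicate 2 lay among the wildtype ones. The difference was -0.18 ± 0.16 (-0.54 to 0.19, unadjusted p = 0.298 and adjusted p = 0.9997 by limma) for knockout minus wildtype, and -0.08 without knockout replicate 1. It was -0.29 (-0.65 to 0.07, unadjusted p = 0.104, limma) for heterozygous minus wildtype, with a range of -0.44 to -0.18 when 1 library was left out at a time, and 0.11 (-0.25 to 0.47) for knockout minus heterozygous, with a range of 0 to 0.26. In knockout versus wildtype, 237 of the 9543 genes (2.48%) had libraries that did not overlap, and Tpt1 was the 1 of the 9 among them. With every library set to the same FPKM sum, Tpt1 overlapped too. The 4 shallower libraries were at 2142 to 2231 FPKM and the deeper ones at 1549.8 to 2201, and heterozygous minus wildtype was 0.01 within the shallower libraries and -0.44 within the deeper ones. GENCODE M21 names 6 pseudogenes after Tpt1, and reads shared with such copies cannot be told apart in these values.

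Eef1a1 and Eef2 form the elongation pair: eEF1A brings aminoacyl-tRNA to the ribosome, and eEF2 moves the ribosome on by a codon. Eef1a1 (ENSMUSG00000037742, chromosome 9, 78478449 to 78489151, minus strand, mean 1191 FPKM) was at 1015, 1231 and 1117 FPKM in knockout, 1076, 1367 and 1108 FPKM in heterozygous and 1237.5, 1107 and 1465 FPKM in wildtype libraries. Eef2 (ENSMUSG00000034994, chromosome 10, 81176631 to 81182498, plus strand, mean 564 FPKM) was at 531, 569 and 539.6 FPKM in knockout, 537, 622 and 528 FPKM in heterozygous and 524, 542 and 683 FPKM in wildtype libraries. In both genes wildtype replicate 3 was highest and heterozygous replicate 2 second, and the genotypes overlapped. Eef1a1 was 1.91 to 2.16 times as high as Eef2 in knockout, 2.00 to 2.20 times in heterozygous and 2.04 to 2.36 times in wildtype libraries.

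For Eef1a1 the differences were -0.17 (-0.53 to 0.18) for knockout minus wildtype, with the lowest unadjusted p of the 9 genes there (0.289), -0.10 (-0.45 to 0.25) for heterozygous minus wildtype and -0.07 (-0.42 to 0.28) for knockout minus heterozygous. For Eef2 they were -0.08 (-0.39 to 0.22), -0.04 (-0.35 to 0.26) and -0.04 (-0.34 to 0.27). For Eef1a1, knockout minus wildtype was -0.07 without wildtype replicate 3 and -0.27 without wildtype replicate 2. Without wildtype replicate 3, heterozygous minus wildtype was 0.01 for Eef1a1 and 0.07 for Eef2. Within the 5 deeper libraries, where wildtype replicate 3 is the sole wildtype library, the same differences were -0.42 (adjusted p = 0.043) and -0.36 (adjusted p = 0.045) by limma, in a fit that called 1864 of 9543 genes (19.5%) and 3 of the 9, Zfp36l2 included. Within the 4 shallower ones, where heterozygous replicate 2 is the sole heterozygous library, they were 0.22 for each gene. The lone library in each fit is assumed to vary like the others.

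The stretches around the annotated starts of Eef1a1, Eef2, Tpt1 and Eif4a1 are shown beside what is known of such mRNAs: those of elongation factors, of Tpt1 and of Pabpc1 open with a pyrimidine tract, through which growth signals control their translation. Each runs from 70 bases before to 30 bases after the RefSeq start, 5′ to 3′ on the gene's strand (GRCm38.p6: chr9:78481695-78481794 minus for Eef1a1, chr10:81176561-81176660 plus for Eef2, chr14:75845186-75845285 plus for Tpt1, chr11:69672394-69672493 minus for Eif4a1). Capitals mark TATAAA or TATATA, and a run that opens with C and holds at least 6 pyrimidines from 10 bases before the start onward.
Eef1a1: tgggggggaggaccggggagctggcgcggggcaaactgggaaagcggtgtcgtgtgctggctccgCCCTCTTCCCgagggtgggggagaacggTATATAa
Eef2: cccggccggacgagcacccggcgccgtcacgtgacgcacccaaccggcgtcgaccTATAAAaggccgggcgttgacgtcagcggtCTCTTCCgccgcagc
Tpt1: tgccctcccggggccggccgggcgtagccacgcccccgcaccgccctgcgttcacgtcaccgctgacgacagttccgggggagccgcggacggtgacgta
Eif4a1: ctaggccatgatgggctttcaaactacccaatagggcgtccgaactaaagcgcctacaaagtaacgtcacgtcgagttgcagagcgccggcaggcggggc

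Both elongation factor stretches held both patterns, but in neither did the pyrimidine run begin at the annotated start. It began at base 16 in Eef2, counting the start as base 1, and 5 bases before the start in Eef1a1. In Eef2 TATAAA began 15 bases before the start, and in Eef1a1 TATATA began at base 24. Of the 32851 start-site windows cut the same way, 6.7% held TATAAA or TATATA on either strand and 27.6% held such a pyrimidine run. Tpt1 and Eif4a1 held neither in these letters, which says only that the patterns were not found in this window at this annotated start. The windows of Eef1a1 and Tpt1 lie inside the gene spans given above, so their RefSeq starts differ from those of the spans. Which starts these cells use was not tested.

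Eif4a1 (ENSMUSG00000059796, chromosome 11, 69666936 to 69672423, minus strand) encodes the helicase of the cap complex that opens mRNA leaders for the ribosome. It varied least of the 9 genes, 1.22-fold from the lowest to the highest library. It was at 279, 286 and 276 FPKM in knockout, 249.8, 276 and 279.9 FPKM in heterozygous and 266, 272 and 304 FPKM in wildtype libraries. The knockout libraries lay inside the range of the wildtype ones. The differences were 0.00 (-0.24 to 0.24) for knockout minus wildtype, -0.06 (-0.30 to 0.18) for heterozygous minus wildtype and 0.06 (-0.17 to 0.30) for knockout minus heterozygous. The first interval corresponds to 0.849 to 1.18 times the wildtype level, the narrowest of the 9. GENCODE M21 names 1 pseudogene after it.

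Eif4ebp1 (ENSMUSG00000031490, chromosome 8, 27260329 to 27276674, plus strand) encodes 4E-BP1, which sequesters the cap-binding protein eIF4E until mTOR phosphorylates it. It was at 22.1, 22.5 and 21.3 FPKM in knockout, 19.1, 15.5 and 20.7 FPKM in heterozygous and 17.1, 19.1 and 23.7 FPKM in wildtype libraries. All 3 knockout libraries lay above all 3 heterozygous libraries and inside the wildtype range. Knockout minus heterozygous was 0.25 ± 0.15 (-0.10 to 0.59, unadjusted p = 0.135 and adjusted p = 0.9996 by limma), the lowest unadjusted p of the 9 genes in that comparison. Libraries did not overlap for 428 of 9543 genes (4.48%) in knockout versus heterozygous, and Eif4ebp1 was the 1 of the 9 among them. With every library set to the same FPKM sum it overlapped. Knockout minus heterozygous was 0.51 within the shallower libraries (1 knockout and 1 heterozygous library) and 0.12 within the deeper ones (2 of each of these). Knockout minus wildtype was 0.14 (-0.20 to 0.49), 0.04 without wildtype replicate 1 and 0.27 without wildtype replicate 3, and heterozygous minus wildtype -0.11 (-0.45 to 0.24). Its values rest on 111 to 311 recovered reads per library, against 53630 to 79514 for Pabpc1, and such counts carry sampling error on top of the spread between libraries.

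**Figure D2:**
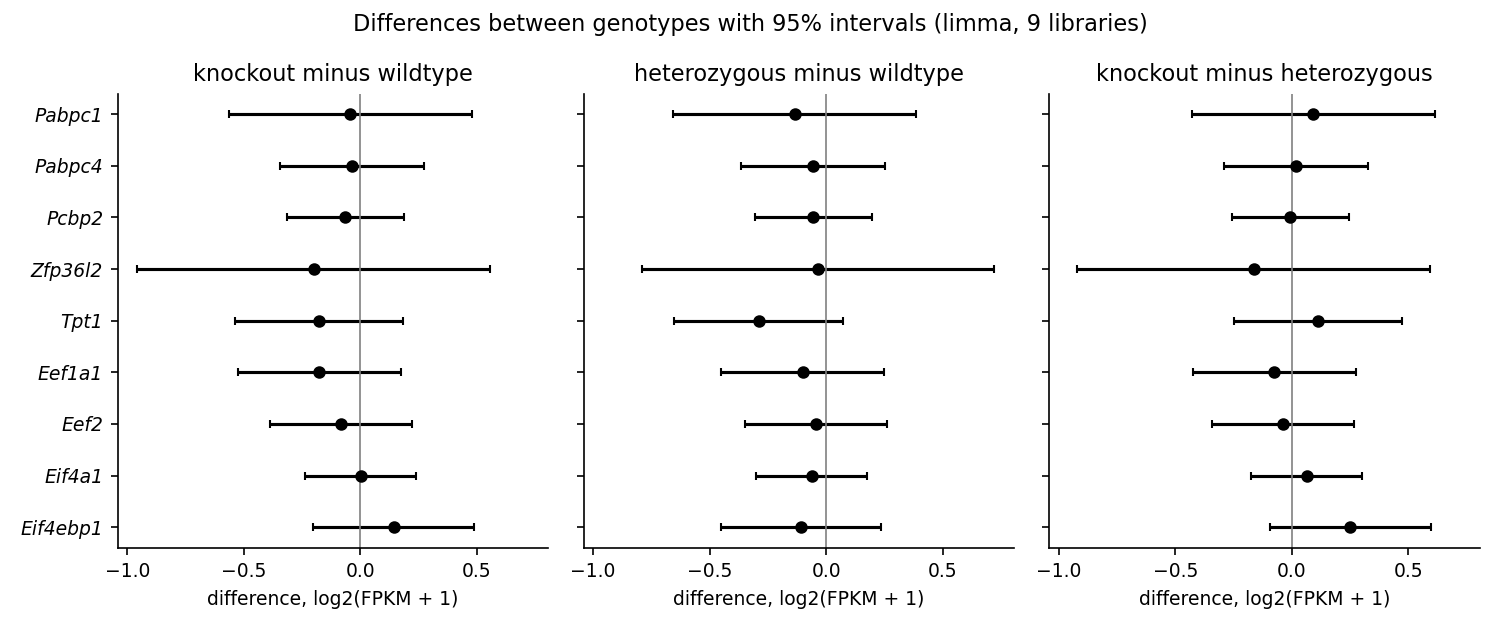
Difference between genotypes for each gene (x axis, log2(FPKM + 1)) with its 95% interval from limma over 9 libraries, in 3 panels for knockout minus wildtype, heterozygous minus wildtype and knockout minus heterozygous. Every interval holds 0, and those of Zfp36l2 and Pabpc1 are the widest.

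None of the differences of the 9 genes passed the test. By limma with Benjamini-Hochberg adjustment over 9543 genes, 0 genes (0%) had an adjusted p below 0.05 in knockout versus wildtype, heterozygous versus wildtype or knockout versus heterozygous. An unadjusted p below 0.05 was reached by 43 genes (0.451%), 113 genes (1.18%) and 56 genes (0.587%) in these comparisons, and by none of the 9. Voom on recovered reads also gave 0 genes, with 38, 91 and 53 at an unadjusted p below 0.05. The half-width of the 95% interval had a median of 0.34 over the 9 genes and 0.42 over all tested genes.

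The 9 genes had a median difference of -0.06 for knockout minus wildtype (7 below 0 and 2 above), against 0.01 over all tested genes, and 4 were below 0 with equal FPKM sums and 3 after quantile normalization. It was -0.06 for heterozygous minus wildtype, where all 9 were below 0 under the deposited scaling, 1 with equal FPKM sums and 2 after quantile normalization. For knockout minus heterozygous it was 0.02, with 4 genes below 0 and 5 above, against 6 below 0 with equal FPKM sums and 7 after quantile normalization. With equal FPKM sums the median of all genes moved to 0.06, 0.12 and -0.07 in the 3 comparisons, and that of the 9 genes was 0.00, 0.08 and -0.06 (-0.06, -0.04 and 0.01 relative to all genes). After quantile normalization the medians of the 9 genes were 0.01, 0.08 and -0.08 relative to all genes. The first and second comparison share the wildtype libraries. In heterozygous versus wildtype, libraries did not overlap for 416 genes (4.36%) and for none of the 9.

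Wildtype replicate 3 was the highest library for 6 of the 9 genes (Pabpc4, Pcbp2, Eef1a1, Eef2, Eif4a1 and Eif4ebp1) and the lowest for 2 (Pabpc1 and Zfp36l2). Over all tested genes it was highest for 31.1% and lowest for 24.7%, more than any other library. Wildtype replicate 1 was highest for the other 3 genes (Pabpc1, Zfp36l2 and Tpt1) and for 15.1% of all tested genes. The 6 knockout and heterozygous libraries were highest for none of the 9 and for 49.5% of all tested genes. Together the 9 genes made up 1.54% to 1.72% of all FPKM in knockout, 1.53% to 1.87% in heterozygous and 1.61% to 1.74% in wildtype libraries. By depth the shares were 1.70% to 1.87% in the 4 shallower and 1.53% to 1.61% in the 5 deeper libraries, without overlap. The erythroid and the T and NK cell marker sums split the same way, and the platelet marker sum split the other way. The B cell, macrophage and neutrophil marker sums overlapped between the depth sets. The part of any of these markers in the shares was not tested.

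**Figure D3:**
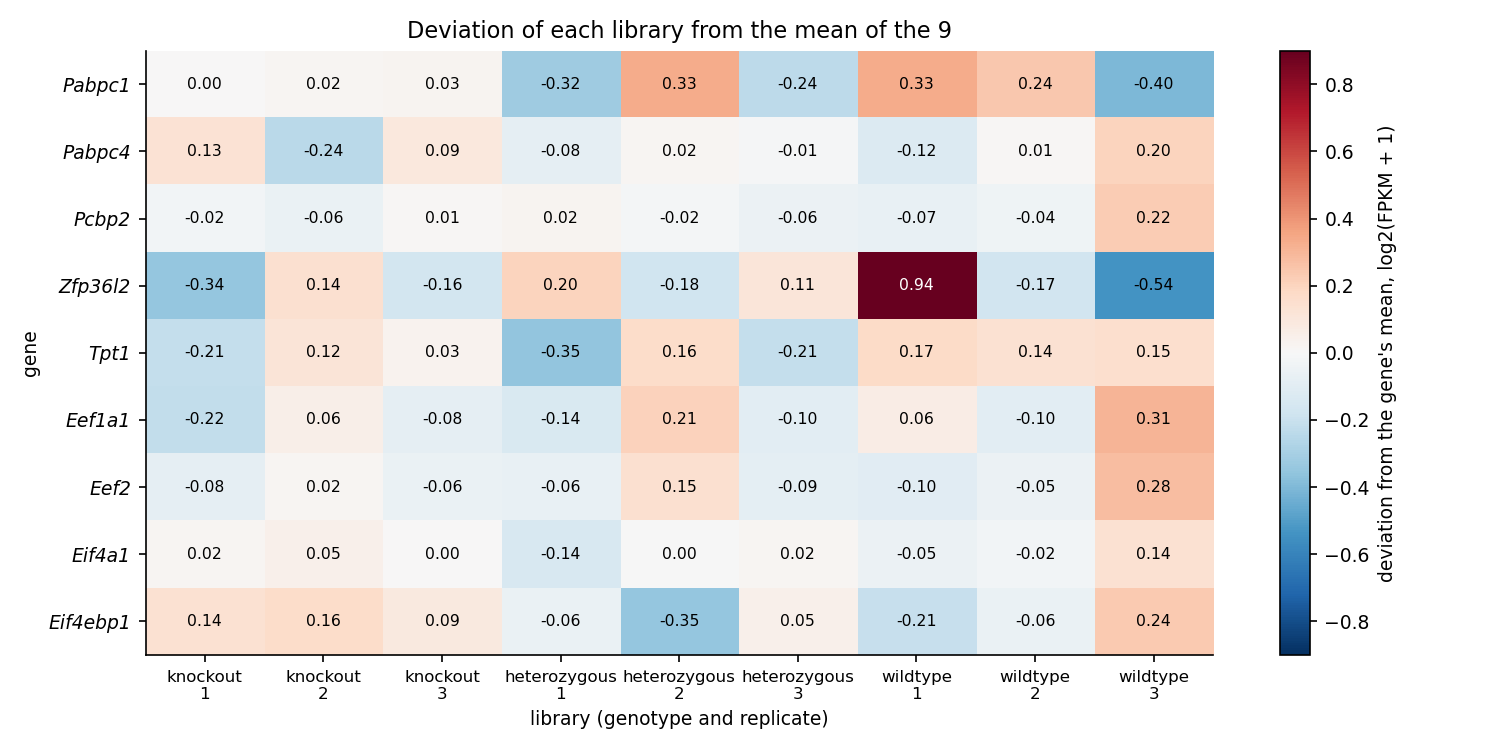
Deviation of every library (columns, knockout, heterozygous and wildtype from left to right) from the mean of the 9 libraries for each gene (rows), on the log2(FPKM + 1) scale given by the color bar. Wildtype replicate 3 is above the mean for 7 genes and below it for Pabpc1 and Zfp36l2, and Zfp36l2 in wildtype replicate 1 has the largest deviation.

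Across the 9 libraries, Pcbp2 and Eef2 were the most alike pair among the 9 genes. The root mean square difference of their centred log2 levels was 0.077. It was 0.079 for Pcbp2 and Eif4a1 and 0.082 for Eef1a1 and Eef2, and largest, at 0.511, for Zfp36l2 and Eif4ebp1. The measure falls with the variance of a gene, so the steady genes are alike in part because each varied little. Of all tested genes, the most alike to Pabpc1 was Rnf11 (0.081), to Pabpc4 Golph3 (0.023), to Pcbp2 Tmem248 (0.038) and to Zfp36l2 Zc3h12a (0.101). Zc3h12a, a gene for an RNase that cleaves inflammatory mRNAs, had a mean of only 1.45 FPKM. At such a level the log2(FPKM + 1) scale shrinks differences. For Tpt1 the most alike was Gabarap (0.039), an autophagy gene, for Eef1a1 Tpp1 (0.045) and for Eef2 the ribosomal protein gene Rps28 (0.039). For Eif4a1 it was Spcs2 (0.027) and for Eif4ebp1 Taf10 (0.058). These are descriptions over 9 libraries that share depth and cell makeup.

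The wider machinery was read from 6 lists of 185 genes, of which 183 are in the table and 172 were tested. 0 of the 172 had an adjusted p below 0.05 by limma, and 0 had an unadjusted p below 0.05, in each comparison. In knockout minus wildtype, 114 (66.3%) were below 0, with a median of -0.04, against 47.3% of all tested genes. In heterozygous minus wildtype, 111 (64.5%) were below 0, with a median of -0.04, against 50.6% of all tested genes. In knockout minus heterozygous, 78 (45.3%) were below 0, with a median of 0.01, against 48.9%. Equal FPKM sums move all genes nearly alike (not exactly, because of the pseudocount), so list medians are given relative to the median of all genes. Relative medians with equal FPKM sums therefore stay near those under the deposited scaling and are no separate check. For knockout minus wildtype all 6 lists lay below the median of all genes. They lay at -0.089 to -0.029 under the deposited scaling, -0.08 to -0.02 with equal FPKM sums and -0.056 to -0.004 after quantile normalization. For heterozygous minus wildtype the lists lay at -0.05 to 0.01 with equal FPKM sums and at -0.03 to 0.06 after quantile normalization, and for knockout minus heterozygous at -0.03 to 0.03 and -0.08 to 0.00.

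The counts by list below use the deposited scaling unless another is named. Under it 47.3%, 50.6% and 48.9% of all tested genes were below 0 in the 3 comparisons. Among 28 tested genes of poly(A) tail binding and deadenylation, 7 were above and 21 below 0 for knockout minus wildtype. The counts were 14 and 14 for heterozygous minus wildtype, and 11 and 17 for knockout minus heterozygous. Btg2, which brings the deadenylase complex to mRNA, was the most abundant non-member at 137 ± 25.1 FPKM in knockout, 120.5 ± 13.1 in heterozygous and 151 ± 8.85 in wildtype libraries (SD, n = 3 each). Its heterozygous minus wildtype difference was -0.33 ± 0.15 (unadjusted p = 0.0624, limma). Larp4, which binds poly(A) and protects it, was at 3.33 ± 0.30, 3.88 ± 0.64 and 3.91 ± 0.23 FPKM in the same order, and Paip2, an inhibitor of poly(A)-binding proteins, at 117 ± 9.24, 98.8 ± 19.8 and 124 ± 17.7 FPKM.

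Among 38 decapping and exonuclease genes, 13 were above and 25 below 0 for knockout minus wildtype. The counts were 11 and 27 for heterozygous minus wildtype, and 29 and 9 for knockout minus heterozygous. With equal FPKM sums 12, 9 and 26 were below 0 in the same order, against 30.2%, 19.7% and 69.0% of all tested genes. After quantile normalization 22, 21 and 20 were below 0, against 48.5%, 48.4% and 52.0%. The skew for knockout minus heterozygous thus depended on the scaling. Upf1, the helicase of nonsense-mediated decay, was the most abundant at 70.7 ± 11.1 FPKM in knockout, 69.7 ± 4.27 in heterozygous and 61.9 ± 6.41 in wildtype libraries. Exosc1, an exosome subunit, had the lowest unadjusted p of all 6 lists (0.0509, limma), with 6.87 ± 1.09 FPKM in heterozygous and 5.07 ± 0.95 in wildtype libraries and a difference of 0.38 ± 0.17. Lsm7, of the Lsm ring that promotes decapping, was at 59.8 ± 5.76 FPKM in knockout and 45.5 ± 4.50 in heterozygous libraries, a difference of 0.39 ± 0.22 (unadjusted p = 0.116, limma).

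Of 27 tested genes for poly(C)-binding and other stability factors, 13 were above and 14 below 0 for knockout minus wildtype, 12 and 15 for heterozygous minus wildtype, and 12 and 15 for knockout minus heterozygous. Rbm38, an RNA-binding protein of late erythroid cells, was the most abundant at 825 ± 133 FPKM in knockout, 734 ± 25.7 in heterozygous and 835 ± 105 in wildtype libraries. Zfp36l1, the close relative of Zfp36l2, was at 10.4 ± 1.35, 12.3 ± 1.72 and 13.2 ± 3.26 FPKM in the same order, with a knockout minus wildtype difference of -0.30 ± 0.19 (unadjusted p = 0.137, limma).

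Among 22 elongation and termination genes, 8 were above and 14 below 0 in knockout minus wildtype, as in heterozygous minus wildtype, and 11 and 11 in knockout minus heterozygous. Gtpbp2, which helps resolve stalled ribosomes, was the most abundant non-member at 291 ± 62.2 FPKM in knockout, 252 ± 18.9 in heterozygous and 258 ± 10.5 in wildtype libraries. Eef1b2 and Eef1d, both exchange factors that recharge eEF1A with GTP, had between them the lowest unadjusted p of the non-members in each comparison. Eef1b2 was at 127 ± 7.02, 120.2 ± 13.3 and 148 ± 37.5 FPKM in knockout, heterozygous and wildtype libraries, with a heterozygous minus wildtype difference of -0.28 ± 0.17. Eef1d was at 153 ± 12.8, 135 ± 4.61 and 152 ± 7.86 FPKM, with a knockout minus heterozygous difference of 0.17 ± 0.11 (unadjusted p = 0.138, limma).

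Among 27 genes of eIF4F, the cap complex, and its regulators, 10 were above and 17 below 0 for knockout minus wildtype, 8 and 19 for heterozygous minus wildtype, and 12 and 15 for knockout minus heterozygous. Mknk2, the kinase of eIF4E, was the most abundant non-member at 148 ± 14.9 FPKM in knockout, 147 ± 5.18 in heterozygous and 155 ± 33.8 in wildtype libraries. Eif4a2, the paralog of Eif4a1, was at 38.3 ± 2.65, 37.1 ± 0.41 and 44.4 ± 8.92 FPKM, far below Eif4a1 on the same per-length scale. Eif4ebp3, a relative of Eif4ebp1, was at 8.96 ± 2.10, 9.64 ± 1.02 and 11.03 ± 2.42 FPKM, and Eif4b, the partner of the helicase, at 49.7 ± 4.90, 56.0 ± 4.91 and 55.6 ± 9.69 FPKM.

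Of 31 other initiation factor genes, 8 were above and 23 below 0 for knockout minus wildtype. The counts were 9 and 22 for heterozygous minus wildtype, and 19 and 12 for knockout minus heterozygous. With equal FPKM sums 16, 9 and 23 were below 0 in the same order, and after quantile normalization 21, 15 and 18. Eif5, which triggers GTP hydrolysis at the start codon, was the most abundant at 387 ± 18.3 FPKM in knockout, 361 ± 81.3 in heterozygous and 430.0 ± 136 in wildtype libraries. Eif3j1 was at 21.1 ± 1.72, 23.7 ± 0.91 and 24.0 ± 1.61 FPKM, and its near-identical copy Eif3j2, with which it may share reads, at 6.47 ± 0.99, 6.06 ± 0.36 and 7.38 ± 0.58 FPKM. Eif2s3y, the Y-linked copy of an eIF2 subunit gene, nearly missing from knockout replicate 2, had a knockout minus wildtype difference of -1.46 (unadjusted p = 0.237, limma), and of 0.26 without that library. Without knockout replicate 2, Tpt1 and Eef1a1 were each at -0.24 and Eif4ebp1 at 0.13 for knockout minus wildtype.

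**Figure D4:**
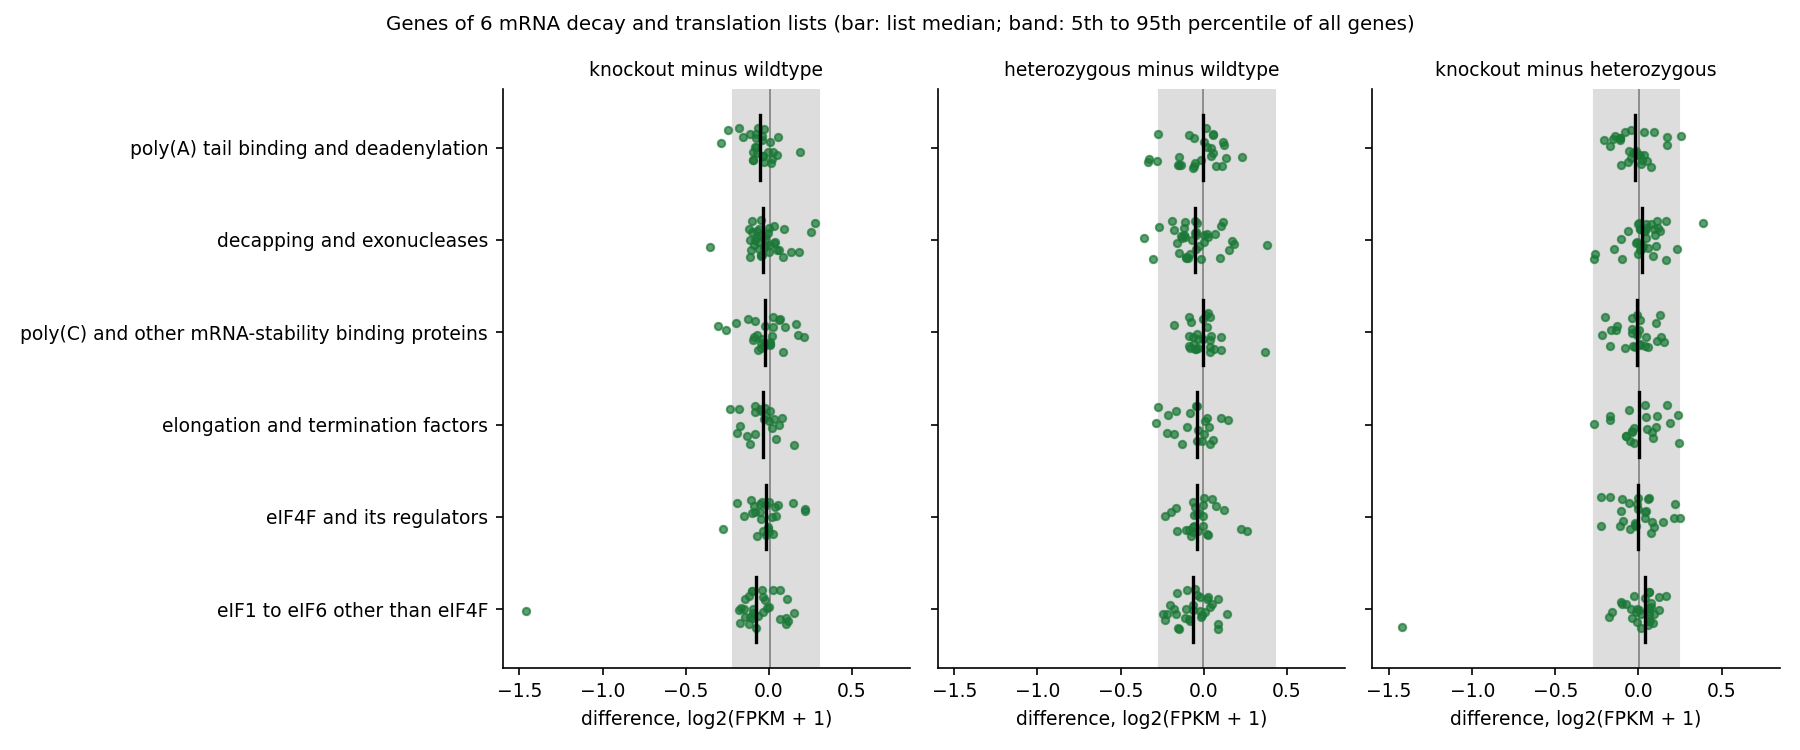
Difference of each tested gene of the 6 lists (points; x axis, log2(FPKM + 1)) in 3 panels for knockout minus wildtype, heterozygous minus wildtype and knockout minus heterozygous. Bars are list medians (-0.08 to 0.04 in all), the grey line the median and the grey band the 5th to 95th percentile of all tested genes, and the lone point near -1.46 is Eif2s3y.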

How the data were processed

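RNA sequencing covered 9 libraries. The authors deposited 1 table of FPKM values for 20368 genes. The table names no unit, and RPKM would look the same. Per the submitters' processing notes, TopHat, Picard, DESeq2 and mm10 were used, while versions, roles, annotation and strandedness are not stated in the labels. Low values step in whole reads: for 100% of 14147 genes above 0 in at least 2 libraries they came out whole within 0.05 of a read, divided by a median-of-ratios size factor. The search took the first multiple that matched. Genes above 0 in only a few libraries would match in any case, so the 100% is no check for them. The recovered reads were 7.05 to 14.23 M (1 M is 1000000) per library. Reads of overlapping or near-identical genes cannot be told apart.

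Positions come from GENCODE M21 by Ensembl identifier (98.3% matched). Limma 3.58.1 in R 4.3.3 was fitted to log2(FPKM + 1) over all 9 libraries for the 9543 genes that reached 1 FPKM in 3 or more libraries, with a mean per genotype, an eBayes trend and Benjamini-Hochberg adjustment (threshold 0.05, 2-sided). Folds of low genes are understated by the pseudocount of 1. The fit was tested on simulated data with errors independent between genes and changes larger than the differences of the 9 genes. That test does not cover small differences or libraries that share depth and cell makeup. Python 3.11.15 with pandas 2.3.3, numpy 2.4.6 and matplotlib 3.10.9 did the rest. There were 22 alternatives, of which the joint omission of wildtype replicates 1 and 3 was chosen after seeing the data.

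The members and lists were chosen with earlier results of these data known. Beside the 9 genes, the text names per list the called genes, the most abundant non-member and the non-member with the lowest unadjusted p in each comparison, and for each of the 9 the most alike gene. Listed Exosc6, Dph1, Trac and Gp1bb are not analysed here. The replicate numbers come from the titles, and no label ties them to a shared mouse, litter or day. Same-numbered libraries (1, 2 and 3) deviated together with correlations of 0.20, 0.18 and 0.41 between knockout and heterozygous, all above 0.1. In both genotypes replicate 2 was shallower and replicates 1 and 3 deeper, so a shared number and a shared depth cannot be told apart there. The fits in the text have no replicate block, and the block is an alternative. The correlations were -0.57, 0.51 and 0.33 between knockout and wildtype and 0.13, 0.18 and 0 between heterozygous and wildtype.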

Additional observations from a re-analysis of the deposited data

How the results depend on the processing

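Over the 22 alternatives the 9 genes gave 594 differences, of which 508 had the sign reported, 86 the other sign, and 3 passed the adjusted threshold. Those 3 are heterozygous minus wildtype in the 5 deeper libraries alone, where wildtype replicate 3 is the sole wildtype library: -0.42 for Eef1a1, -0.36 for Eef2 and 0.7 for Zfp36l2. The 508 include fits that by design return the same difference. Such fits drop the filter or the eBayes trend, add the replicate block or use only the pair's libraries. Omitting a library of the genotype outside a comparison also leaves its difference unchanged. The count of 508 therefore overstates how steady the signs were. Outside both depth subsets the lowest adjusted p was 0.863 (limma). The count of genes called was 0 in each comparison under the other alternatives. The deeper libraries alone gave 929 for knockout versus wildtype, 1864 for heterozygous versus wildtype and 0 for knockout versus heterozygous (1525 at an unadjusted p below 0.05). The 4 shallower libraries alone gave 3, 1 and 3, where knockout and heterozygous are each 1 library. With the replicate block 0 genes were called in each comparison, with 56, 161 and 66 at an unadjusted p below 0.05, and the block changed no call. Calls among the genes of the 6 lists came only in fits to a depth subset that leave a compared genotype with 1 library, so they are not counted here. In the shallower libraries alone, such calls fell only in the list of eIF1 to eIF6 factors other than eIF4F. That list holds Eif2s3y, and the sole knockout library there is replicate 2, with 0.599 FPKM of Eif2s3y. Which gene was called is not given here. Counting limits Eif4ebp1 most (111 to 311 reads). The cause of the sign changes below was not tested. Equal FPKM sums move all genes nearly alike. The median of all genes was then 0.06 for knockout minus wildtype, 0.12 for heterozygous minus wildtype and -0.07 for knockout minus heterozygous. Sign changes under that scaling include this shift.

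Knockout minus wildtype had the other sign as follows. Quantile normalization gave 0.02 for Pabpc1, 0.02 for Pabpc4, 0.07 for Tpt1 and 0.04 for Eef2. Equal FPKM sums gave 0.02 for Pabpc1, 0.03 for Pabpc4 and 0 for Pcbp2. A depth term gave 0.04 for Pabpc1, and a leukocyte marker term 0 for Pabpc4. The deeper libraries gave 0.42 for Pabpc1, 0.29 for Zfp36l2, -0.13 for Eif4a1 and -0.12 for Eif4ebp1. The shallower ones gave 0.07 for Eef1a1 and 0.1 for Eef2. Without wildtype replicates 1 and 3 it was 0.01 for Pcbp2, 0.05 for Zfp36l2, 0.01 for Eef1a1 and 0.01 for Eef2. With 1 library left out at a time it ran from -0.27 to 0.09 for Pabpc1, -0.11 to 0.08 for Pabpc4, -0.12 to 0.03 for Pcbp2, -0.51 to 0.23 for Zfp36l2, -0.15 to 0.04 for Eef2 and -0.04 to 0.06 for Eif4a1. Wildtype replicates 1 and 3 set both ends of these ranges, but for the upper end of Pabpc4, which knockout replicate 2 set. It kept its sign for Tpt1 (-0.24 to -0.08), Eef1a1 (-0.27 to -0.07) and Eif4ebp1 (0.04 to 0.27).

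For heterozygous minus wildtype, quantile normalization gave 0.08 for Pabpc1, 0.1 for Pabpc4, 0.07 for Pcbp2, 0.04 for Tpt1, 0.12 for Eef1a1, 0.16 for Eef2 and 0.11 for Eif4a1. Equal FPKM sums gave 0.01 for Pabpc1, 0.09 for Pabpc4, 0.09 for Pcbp2, 0.1 for Zfp36l2, 0.04 for Eef1a1, 0.1 for Eef2, 0.08 for Eif4a1 and 0.03 for Eif4ebp1. A depth term gave 0 for Zfp36l2. The deeper libraries gave 0.12 for Pabpc1 beside the Zfp36l2 value above. The shallower ones gave 0.04 for Pabpc1, 0.07 for Pabpc4, 0.04 for Pcbp2, 0.01 for Tpt1, 0.22 for Eef1a1, 0.22 for Eef2 and 0.04 for Eif4a1. Without wildtype replicates 1 and 3 it was 0.02 for Pcbp2, 0.21 for Zfp36l2, 0.09 for Eef1a1 and 0.05 for Eef2. With 1 library left out at a time it ran from -0.36 to 0 for Pabpc1, -0.13 to 0.03 for Pabpc4, -0.11 to 0.04 for Pcbp2, -0.34 to 0.4 for Zfp36l2, -0.21 to 0.01 for Eef1a1, -0.12 to 0.07 for Eef2 and -0.21 to 0.02 for Eif4ebp1, and from -0.44 to -0.18 for Tpt1.

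For knockout minus heterozygous, quantile normalization gave -0.07 for Pabpc1, -0.08 for Pabpc4 and -0.05 for Eif4a1. Equal FPKM sums gave -0.06 for Pabpc4 and -0.02 for Eif4a1. The shallower libraries gave -0.31 for Pabpc1, -0.26 for Pabpc4, 0.33 for Zfp36l2 and -0.05 for Tpt1, and the deeper ones 0.01 for Pcbp2 and 0.01 for Eef2. With 1 library left out at a time it ran from -0.03 to 0.3 for Pabpc1, -0.05 to 0.14 for Pabpc4, -0.03 to 0.01 for Pcbp2, -0.14 to 0.03 for Eef1a1 and -0.08 to 0.04 for Eef2. It ran from 0 to 0.26 for Tpt1, -0.3 to -0.05 for Zfp36l2, 0.01 to 0.09 for Eif4a1 and 0.14 to 0.33 for Eif4ebp1.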
